A study of Homo sapiens with 23 samples.

Results

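The Polycomb repressive complexes were followed through 29 genes that encode their subunits, 11 of PRC2 and 18 of PRC1, out of 28101 genes counted by RNA-seq in the human colorectal cancer line HCT116. The genes were taken by name as known subunits, and each was counted on the RefSeq transcript with the most reads. All 29 were found in the tables and all 29 passed the filter on low counts, among 16828 genes tested. The study knocked out MLL4, the histone methyltransferase encoded by KMT2D that marks enhancers, and BAP1, a deubiquitinase, and its title asks how far these proteins depend on each other at genes they regulate.

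The 8 RNA-seq libraries form 4 groups of 2. Cells labelled MLL4 KO were set against cells labelled WT, and cells labelled BAP1 KO against cells labelled control, which also carry WT as their genotype. All were HCT116, and the labels of the RNA libraries give no drug or added gene. The names of the deposited tables for BAP1 KO and control carry osTir1, a plant receptor used for induced protein degradation, and those for MLL4 KO and WT do not. Each knockout was therefore compared only with its own unedited group. The labels do not say how the knockouts were made or whether replicates were separate clones or cultures, so the p-values measure only the spread between these libraries.

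Polycomb complexes keep developmental genes silent. PRC2 methylates lysine 27 of histone H3 through EZH1 or EZH2, and PRC1 places ubiquitin on histone H2A through RING1 or RNF2. BAP1 removes that ubiquitin, so PRC1 and BAP1 act on the same mark in opposite directions. PRC1 exists in several forms set by which PCGF protein it holds, and the canonical forms carry a CBX protein that reads methylated H3K27.

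Counts summed over genes ranged from 24.8 to 42.2 M (1e6) per library. KMT2D messenger RNA stood at 280 and 406 CPM (counts per 1e6 counts, TMM-scaled) in MLL4 KO and 309 and 371 CPM in WT. BAP1 stood at 67.4 and 57.4 CPM in BAP1 KO and 56.7 and 62.1 CPM in control. Neither transcript was lower in its own knockout, and these levels do not check the labels. Of 10 epithelial markers, 9 exceeded 1 CPM in every library, and the exception, LGALS4, reached at most 0.287 CPM. Their summed level, mostly KRT8, KRT18 and KRT19, was 5420 and 5500 CPM in MLL4 KO, 3890 and 3760 CPM in WT, 3060 and 3620 CPM in BAP1 KO and 5940 and 5950 CPM in control. The sum was therefore higher in MLL4 KO than in WT and lower in BAP1 KO than in control. Single markers did not all follow it. In MLL4 KO, KRT8 and KRT18 lay above WT. EPCAM lay below WT, at 109 and 119 CPM against 214 and 282 CPM, as did KRT19, at 783 and 778 CPM against 874 and 842 CPM. The median of the 10 markers was 73.7 and 103 CPM in MLL4 KO and overlapped WT, at 130 and 81.5 CPM. VIL1 lay above control in BAP1 KO, at 17.2 and 15.7 CPM against 12.5 and 11.9 CPM. CDH1, the epithelial cadherin, had 79.5 and 88.7 CPM in MLL4 KO and 78 and 62.3 CPM in WT, with 28 and 70.2 CPM in BAP1 KO and 233 and 239 CPM in control. Of 13 markers of fibroblasts, leukocytes and endothelium, DCN, LUM and CD3E were at 0 in all 8 libraries, and the summed level, mostly COL1A1 and CD68, was 40.5 and 42.7 CPM in MLL4 KO, 34.7 and 44 CPM in WT, 52.4 and 60.5 CPM in BAP1 KO and 76.7 and 83.6 CPM in control. The part of these marker levels in the members' changes was not tested.

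In MLL4 KO, 7 of the 29 members passed the threshold (adjusted p at or under 0.05, edgeR), which is 24.1% against 19.1 percent of all tested genes. CBX7 and PCGF2 rose, where 9.12 percent of all tested genes rose, and EZH2, EED, BMI1, PCGF5 and PCGF6 fell, where 9.97 percent fell. In BAP1 KO, 10 of 29 passed, 34.5% against 22.4 percent of all tested genes. EZH2, RBBP7, PHF1, MTF2, PHF19, PCGF2, CBX2 and CBX7 rose, where 12.1 percent of all tested genes rose, and BMI1 and PCGF6 fell, where 10.4 percent fell. The median log2 fold change of the members was -0.09 in MLL4 KO, where that of all genes was 0, and 0.25 in BAP1 KO, where that of all genes was 0.01. The MLL4 KO count depended on the fit. With only the 4 MLL4 KO and WT libraries no member passed (CBX7 had the smallest adjusted p, 0.0596), where 60 of all genes did. With upper-quartile scaling 4 members passed as higher and 2 as lower, against 2 higher and 5 lower with TMM. Of all genes 3093 passed with upper-quartile scaling and 3212 with TMM. The median log2 fold change of all genes was 0.0884 with upper-quartile scaling and 0.00375 with TMM. Upper-quartile scaling ended the calls of EZH2 (adjusted p = 0.0592), EED (0.067) and PCGF5 (0.0602) and added EZH1 and PHC1.

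**Figure D1:**
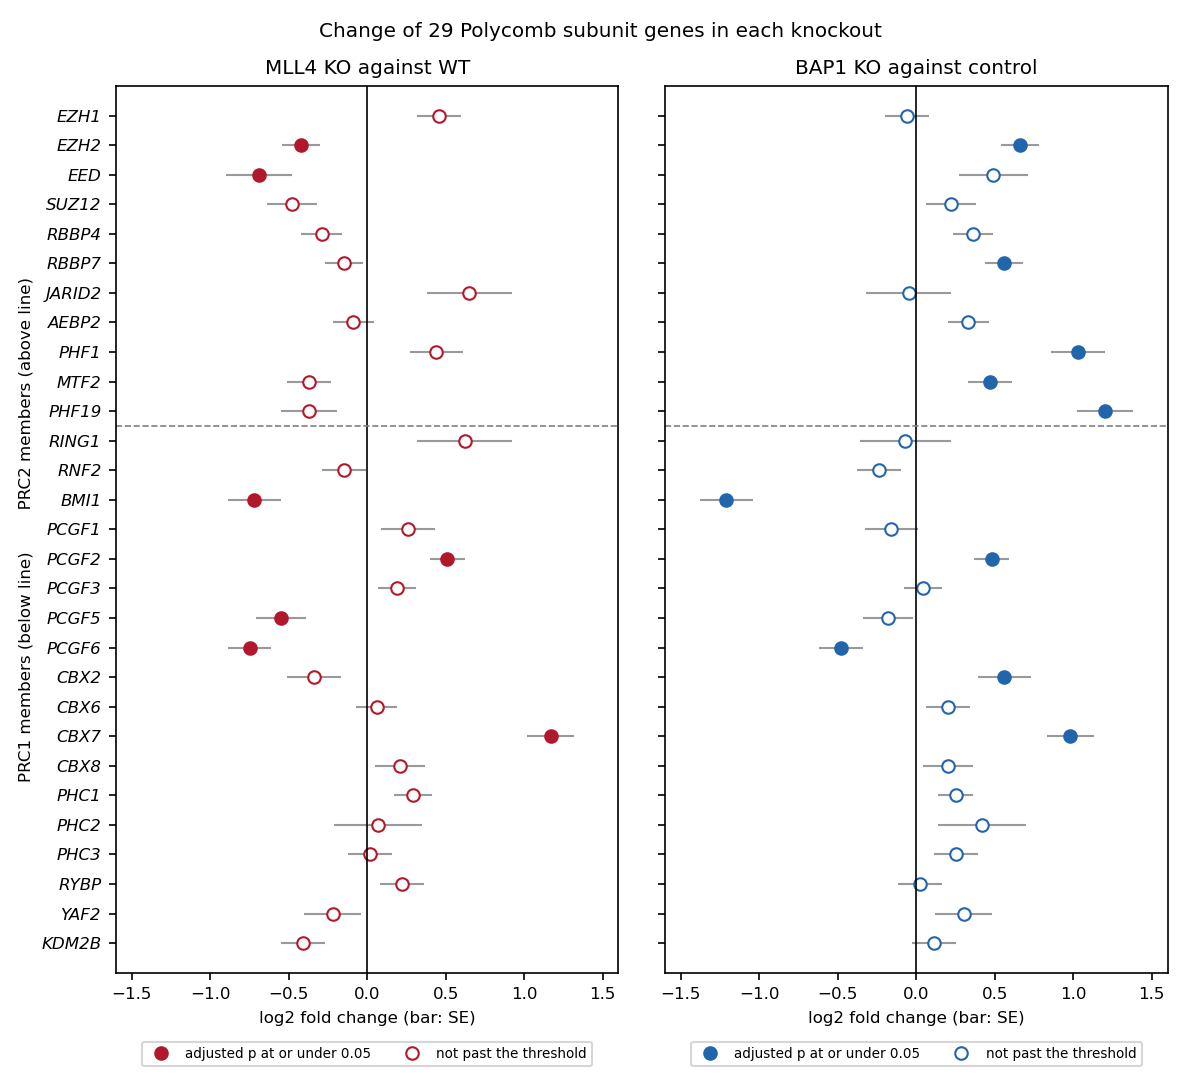
Log2 fold change of each of the 29 members in MLL4 KO against WT (left) and BAP1 KO against control (right), with the SE as a bar. Filled points passed the threshold. CBX7 and PCGF2 lie right of 0 and BMI1 and PCGF6 left of 0 in both panels, while EZH2 lies left of 0 in MLL4 KO and right of it in BAP1 KO.

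EZH2 changed in both knockouts, in opposite directions, and EZH1 passed in neither. EZH2, the H3K27 methyltransferase of dividing cells (chromosome 7, 148807383 to 148884291, GRCh38.p14), stood at 75.1 and 74.1 CPM in MLL4 KO and 93.9 and 106 CPM in WT. It stood at 68.6 and 63 CPM in BAP1 KO and 42.9 and 40.3 CPM in control. Neither pair of groups overlapped, with EZH2 below WT in MLL4 KO and above control in BAP1 KO. The log2 fold change was -0.42 ± 0.12 in MLL4 KO (SE, n = 2 against 2, adjusted p = 0.0364) and 0.66 ± 0.12 in BAP1 KO (adjusted p = 0.00458). The difference between these effects was -1.08 ± 0.17 on the log2 scale (adjusted p = 0.00417), and its call was kept without any single library. The MLL4 KO call was kept without WT replicate 1 and lost without any other single library (adjusted p = 0.0571 to 0.149), and the BAP1 KO call was lost without control replicate 2 (adjusted p = 0.0839).

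EZH1, the paralog that persists in resting cells (chromosome 17, 42700275 to 42745040), had 37.9 and 41.9 CPM in MLL4 KO and 31.7 and 26.3 CPM in WT. It had 42.4 and 38.6 CPM in BAP1 KO and 45.3 and 39.6 CPM in control. The MLL4 KO libraries lay above both WT libraries, and BAP1 KO overlapped control. EZH1 missed the threshold in both, at 0.46 ± 0.14 in MLL4 KO (adjusted p = 0.0522) and -0.06 ± 0.14 in BAP1 KO (adjusted p = 0.78). In MLL4 KO it passed without WT replicate 1 (adjusted p = 0.0195) and with upper-quartile scaling, DESeq2, the stricter low-count filter or the longest transcript row (adjusted p = 0.0398 to 0.0493). On the per-length scale (TMM-scaled CPM per kilobase of the counted transcript), the EZH2 to EZH1 ratio was 3.46 and 3.09 in MLL4 KO against 5.17 and 7.02 in WT, and 2.82 and 2.85 in BAP1 KO against 1.66 and 1.78 in control. EZH2 was the more abundant of the pair in all 8 libraries, with 62.3% to 87.5% of their sum.

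EED and SUZ12 complete the PRC2 core, EED as the reader of methylated H3K27 and SUZ12 as the scaffold. EED had 22.2 and 18 CPM in MLL4 KO and 25 and 40.1 CPM in WT, with 21.9 and 20.1 CPM in BAP1 KO and 14.9 and 15 CPM in control. MLL4 KO lay below both WT libraries and BAP1 KO above both control libraries, and WT replicate 2 was 1.6 times as high as WT replicate 1. EED fell in MLL4 KO by 0.69 ± 0.21 on the log2 scale (adjusted p = 0.0499). It did not pass in BAP1 KO, at 0.49 ± 0.22 (adjusted p = 0.142), and the difference of effects was -1.19 ± 0.31 (adjusted p = 0.0311). The BAP1 KO value passed without either WT library (adjusted p = 0.0328 and 0.0344) and with only the 4 BAP1 KO and control libraries (adjusted p = 0.0124). The MLL4 KO call was lost without any single library other than WT replicate 1 (adjusted p = 0.0612 to 0.312), and the difference was lost without WT replicate 2, MLL4 KO replicate 2 or any control or BAP1 KO library (adjusted p = 0.0513 to 0.122). The longest transcript row also ended the MLL4 KO call of EED (adjusted p = 0.0534), as did the legacy dispersion (adjusted p = 0.0558).

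SUZ12 had 89.3 and 71.8 CPM in MLL4 KO and 95.9 and 129 CPM in WT, with 93.8 and 90.3 CPM in BAP1 KO and 78.3 and 79.3 CPM in control. Neither pair of groups overlapped, and neither comparison passed, at -0.48 ± 0.16 in MLL4 KO (adjusted p = 0.062) and 0.22 ± 0.16 in BAP1 KO (adjusted p = 0.354). In MLL4 KO SUZ12 passed with DESeq2 (adjusted p = 0.0351), without WT replicate 1 (adjusted p = 0.00787) and without MLL4 KO replicate 1 (adjusted p = 0.0473), and in BAP1 KO with only the 4 libraries of that comparison (adjusted p = 0.0475). The pseudogenes SUZ12P1 and SUZ12P2 could share its reads, and the higher of their levels in any library was 20.5 CPM.

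RBBP4 and RBBP7 are histone-binding proteins that PRC2 shares with other chromatin complexes. RBBP7 (chromosome X, 16844341 to 16870362) had 156 and 150 CPM in MLL4 KO and 165 and 173 CPM in WT, with 129 and 115 CPM in BAP1 KO and 87 and 78.6 CPM in control. Neither pair of groups overlapped, with the lowest levels in control. RBBP7 rose in BAP1 KO by 0.56 ± 0.12 (adjusted p = 0.00939), was -0.15 ± 0.12 in MLL4 KO (adjusted p = 0.384), and the effects differed by -0.71 ± 0.17 (adjusted p = 0.0211). RBBP4 had 221 and 188 CPM in MLL4 KO and 238 and 260 CPM in WT, with 274 and 244 CPM in BAP1 KO and 205 and 199 CPM in control. RBBP4 was below WT in MLL4 KO and above control in BAP1 KO without overlap. It passed in neither knockout, at -0.29 ± 0.13 in MLL4 KO (adjusted p = 0.139) and 0.36 ± 0.13 in BAP1 KO (adjusted p = 0.0735), while the difference of effects passed at -0.64 ± 0.18 (adjusted p = 0.0409). The RBBP7 call in BAP1 KO was lost without either control library or BAP1 KO replicate 1 (adjusted p = 0.0654 to 0.148). The RBBP7 difference was also lost without each of these (adjusted p = 0.089 to 0.145) and without MLL4 KO replicate 2 (adjusted p = 0.0596). The RBBP4 difference was lost without WT replicate 2, MLL4 KO replicate 2 or any control or BAP1 KO library (adjusted p = 0.0591 to 0.185) and with upper-quartile scaling (adjusted p = 0.0618). The RBBP4 value in BAP1 KO passed without either WT library (adjusted p = 0.0463 and 0.0458) and with only the 4 libraries of that comparison (adjusted p = 0.0125).

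PHF1, MTF2 and PHF19 encode the Polycomb-like proteins, which define the PRC2.1 form and help it bind CpG-rich DNA. All 3 passed as higher in BAP1 KO, where 12.1 percent of all tested genes did. None of them passed in MLL4 KO, where 19.1 percent of all tested genes passed. PHF19 (chromosome 9, 120855651 to 120904128) had 41.1 and 49.3 CPM in MLL4 KO and 49.1 and 67.4 CPM in WT, with 39.8 and 36 CPM in BAP1 KO and 15.1 and 17.7 CPM in control. MLL4 KO overlapped WT, and BAP1 KO lay far above control. Its log2 fold change was 1.2 ± 0.18 in BAP1 KO (adjusted p = 0.00216) and -0.37 ± 0.18 in MLL4 KO (adjusted p = 0.162), and the effects differed by -1.57 ± 0.25 (adjusted p = 0.00511). The BAP1 KO call and the difference were kept without any single library, and the MLL4 KO value passed without WT replicate 1, at -0.58 (adjusted p = 0.0257).

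PHF1 (chromosome 6, 33410412 to 33416439) had 34.7 and 48.8 CPM in MLL4 KO and 33.6 and 27.8 CPM in WT, with 85.5 and 82.7 CPM in BAP1 KO and 43.1 and 39.5 CPM in control. The BAP1 KO libraries held the highest PHF1 levels of all 8. It rose in BAP1 KO by 1.03 ± 0.17 (adjusted p = 0.00327), a call lost without control replicate 2 (adjusted p = 0.0515). Its value in MLL4 KO was 0.44 ± 0.17 (adjusted p = 0.0992), and the difference did not pass at -0.59 ± 0.24 (adjusted p = 0.129). The MLL4 KO value passed without MLL4 KO replicate 1 (adjusted p = 0.0273), and the difference without MLL4 KO replicate 2 (adjusted p = 0.0469).

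MTF2 had 42.8 and 38 CPM in MLL4 KO and 46.6 and 57.7 CPM in WT, with 53.1 and 47.6 CPM in BAP1 KO and 34.9 and 37.8 CPM in control. Its log2 fold changes were -0.37 ± 0.14 in MLL4 KO (adjusted p = 0.0975) and 0.47 ± 0.14 in BAP1 KO (adjusted p = 0.044), and the difference of effects was -0.84 ± 0.2 (adjusted p = 0.0244). MTF2 lay below WT in both MLL4 KO libraries and above control in both BAP1 KO libraries. The BAP1 KO call was lost without any single BAP1 KO or control library (adjusted p = 0.0845 to 0.267) and without a filter on low counts (adjusted p = 0.0592). The difference was lost without MLL4 KO replicate 2, either control library or BAP1 KO replicate 1 (adjusted p = 0.0748 to 0.133). The MLL4 KO value passed without WT replicate 1, at -0.52 (adjusted p = 0.0237). Within the PHF1, MTF2 and PHF19 sum on the per-length scale, PHF19 held 27.7% and 27.8% in MLL4 KO and 31% and 38.1% in WT, and 15.9% and 15.2% in BAP1 KO and 11.7% and 13.8% in control.

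JARID2 and AEBP2 define the PRC2.2 form, which binds ubiquitinated H2A. JARID2 had 47.8 and 96.7 CPM in MLL4 KO and 43.3 and 48.3 CPM in WT, with 53.6 and 54.4 CPM in BAP1 KO and 55.2 and 56.5 CPM in control. The MLL4 KO replicates differed by 2.03 times, the widest JARID2 spread of the 4 groups, and the log2 fold change of 0.65 ± 0.27 did not pass (adjusted p = 0.127). Without MLL4 KO replicate 2 it was 0.08, and without MLL4 KO replicate 1 it was 1.08 and passed (adjusted p = 0.00538). It was -0.05 ± 0.27 in BAP1 KO (adjusted p = 0.919). AEBP2, at 32.6 to 46.2 CPM over the 8 libraries, was -0.09 ± 0.13 in MLL4 KO (adjusted p = 0.652) and 0.33 ± 0.13 in BAP1 KO (adjusted p = 0.11), where it passed with only the 4 libraries of that comparison (adjusted p = 0.0245).

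Over PRC2 as a whole, 2 of 11 members passed in MLL4 KO, both lower, or 18.2% against 19.1 percent of all tested genes (9.97 percent lower). In BAP1 KO 5 of 11 passed, all higher, or 45.5% against 22.4 percent of all tested genes (12.1 percent higher). The median log2 fold change of the 11 genes was -0.29 in MLL4 KO and 0.47 in BAP1 KO, where the medians of all genes were 0 and 0.01. The difference of effects passed for 6 of the 11 PRC2 genes, all negative, and for 1 of the 18 PRC1 genes, CBX2. For all tested genes the difference passed in 16.1 percent, with 8.32 percent negative and 7.74 percent positive.

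The promoters of the PRC2 genes whose effects differed between the knockouts are shown where they hold a short E2F-type sequence, a type known from genes of dividing cells. SUZ12 passed in neither knockout nor for the difference of effects, and is shown because its window holds the sequence too. The windows run from 250 bases before to 50 bases after a RefSeq transcript start (GRCh38.p14), 27 members have a window, and the letters searched on both strands were TTTCCCGC and TTTGGCGC. A match was found in 4 of the 27 members (14.8%), all 4 of PRC2, against 750 of 27305 genes with a window (2.75%). A gene counted if any of its windows matched, and the 27305 genes include genes not tested here, so the shares are not from like sets. In the windows below, each read 5′ to 3′ on the strand of its gene, the capitals mark the match.

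EZH2, chr7:148884242-148884541, minus strand: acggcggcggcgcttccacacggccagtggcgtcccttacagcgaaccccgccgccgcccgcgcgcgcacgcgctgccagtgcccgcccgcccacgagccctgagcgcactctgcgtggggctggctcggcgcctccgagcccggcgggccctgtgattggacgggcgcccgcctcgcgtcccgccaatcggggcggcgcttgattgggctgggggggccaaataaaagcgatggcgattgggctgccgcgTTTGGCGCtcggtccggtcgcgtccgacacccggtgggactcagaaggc
SUZ12, chr17:31936757-31937056, plus strand: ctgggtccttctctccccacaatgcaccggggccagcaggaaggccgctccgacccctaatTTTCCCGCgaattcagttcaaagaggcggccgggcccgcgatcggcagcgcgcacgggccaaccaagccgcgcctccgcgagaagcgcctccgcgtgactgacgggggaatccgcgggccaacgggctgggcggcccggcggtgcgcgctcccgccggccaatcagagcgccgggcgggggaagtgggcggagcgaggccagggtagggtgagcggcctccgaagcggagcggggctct
MTF2, chr1:93079033-93079332, plus strand: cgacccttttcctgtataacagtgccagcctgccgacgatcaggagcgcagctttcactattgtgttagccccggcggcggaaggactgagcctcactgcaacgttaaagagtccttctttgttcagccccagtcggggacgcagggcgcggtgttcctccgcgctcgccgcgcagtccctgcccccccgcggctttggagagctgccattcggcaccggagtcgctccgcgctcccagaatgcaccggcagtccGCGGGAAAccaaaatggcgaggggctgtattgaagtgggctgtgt
PHF19, chr9:120877139-120877438, minus strand: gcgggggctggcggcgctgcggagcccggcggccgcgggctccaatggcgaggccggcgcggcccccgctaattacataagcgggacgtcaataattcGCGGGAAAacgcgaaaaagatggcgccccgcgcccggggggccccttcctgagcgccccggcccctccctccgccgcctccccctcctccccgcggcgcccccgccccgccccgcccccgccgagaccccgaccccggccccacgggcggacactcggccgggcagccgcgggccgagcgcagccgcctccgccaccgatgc

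The first base of the match lay 1 base after the start in EZH2, 5 bases after it in MTF2, 152 bases before it in PHF19 and 189 bases before it in SUZ12. In MTF2 and PHF19 the letters TTTCCCGC stand on the opposite strand and so read GCGGGAAA in the printed window. EZH2 and PHF19 each have a further window without a match. EED, RBBP4 and RBBP7, the other PRC2 genes whose effects differed, have windows with no match, and CBX2 has no window. The match is a description of letters only. Binding was not measured at these windows in the data used here, and the part of these letters in the changes was not tested.

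In PRC1, the ubiquitin ligases RING1 and RNF2 passed in neither knockout. RING1 had 63.2 and 75.3 CPM in MLL4 KO and 57.6 and 32.7 CPM in WT, with 51.7 and 85.3 CPM in BAP1 KO and 71.9 and 71.7 CPM in control. MLL4 KO lay above WT, and the BAP1 KO libraries enclosed both control libraries. Its replicates spread by 1.76 times in WT and 1.65 times in BAP1 KO, and the log2 fold changes were 0.62 ± 0.3 in MLL4 KO (adjusted p = 0.174) and -0.07 ± 0.29 in BAP1 KO (adjusted p = 0.89). Without WT replicate 1 the RING1 value in MLL4 KO was 1.08 and passed (adjusted p = 0.0307), and without BAP1 KO replicate 1 that in BAP1 KO was 0.25. RNF2 had 27.7 and 26.5 CPM in MLL4 KO and 29 and 31.3 CPM in WT, with 27.7 and 28.5 CPM in BAP1 KO and 36 and 30.3 CPM in control. Each knockout lay below its own unedited group without overlap. The RNF2 values were -0.15 ± 0.14 in MLL4 KO (adjusted p = 0.449) and -0.24 ± 0.14 in BAP1 KO (adjusted p = 0.245). RNF2 was the narrower of the pair over the 8 libraries, with a highest level 1.36 times its lowest, against 2.61 times for RING1.

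The PCGF proteins decide which form of PRC1 assembles, and BMI1 and PCGF2 are the alternative partners of canonical PRC1. BMI1 (chromosome 10, 22321099 to 22331706) had 60.6 and 59.8 CPM in MLL4 KO and 80.4 and 117 CPM in WT, with 37.9 and 38.9 CPM in BAP1 KO and 85.2 and 92.3 CPM in control. Each knockout lay below its own unedited group without overlap, with the lowest levels in BAP1 KO. BMI1 fell in MLL4 KO by 0.72 ± 0.17 (adjusted p = 0.0221) and in BAP1 KO by 1.21 ± 0.17 on the log2 scale (adjusted p = 0.00139). No difference between the effects passed for BMI1, at 0.49 ± 0.23 (adjusted p = 0.178), although it passed at 0.79 without WT replicate 2 (adjusted p = 0.0149). The BAP1 KO call was kept without any single library. The MLL4 KO call was lost without WT replicate 2, either MLL4 KO library or either control library (adjusted p = 0.0515 to 0.104).

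A readthrough transcript, COMMD3-BMI1, spans BMI1 and shares its reads, so reads of the separate transcripts cannot be told apart. COMMD3, the upstream gene of that pair, had 15.2 and 13 CPM in MLL4 KO and 21.9 and 20.8 CPM in WT, with 8.93 and 8.23 CPM in BAP1 KO and 20.1 and 20.4 CPM in control. It fell with BMI1, by 0.6 ± 0.15 on the log2 scale in MLL4 KO (adjusted p = 0.0279) and by 1.24 ± 0.16 in BAP1 KO (adjusted p = 0.000858). COMMD3 was named after its values were seen.

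PCGF2 (chromosome 17, 38733898 to 38749792) went the other way from BMI1. It had 89.3 and 95.5 CPM in MLL4 KO and 60.9 and 68.6 CPM in WT, with 73.3 and 72.4 CPM in BAP1 KO and 53 and 51.7 CPM in control. Each knockout lay above its own unedited group without overlap. It rose by 0.51 ± 0.11 in MLL4 KO (adjusted p = 0.02) and 0.48 ± 0.11 in BAP1 KO (adjusted p = 0.0171), and the difference of effects was 0.03 ± 0.16 (adjusted p = 0.903). On the per-length scale the PCGF2 to BMI1 ratio was 1.98 and 2.15 in MLL4 KO against 1.02 and 0.787 in WT, and 2.6 and 2.5 in BAP1 KO against 0.836 and 0.752 in control. The ratio was therefore higher in every knockout library than in every unedited library. The PCGF2 call was lost in MLL4 KO without either of the control libraries or the second of the MLL4 KO libraries (adjusted p from 0.0545 to 0.0833), and in BAP1 KO without any single BAP1 KO or control library (adjusted p = 0.066 to 0.172).

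PCGF1, PCGF3, PCGF5 and PCGF6 belong to variant PRC1. PCGF6 (chromosome 10, 103302796 to 103351140), a subunit of the form that binds promoters through MGA and MAX, had 22.2 and 22 CPM in MLL4 KO and 35.4 and 39.1 CPM in WT, with 18.3 and 17.6 CPM in BAP1 KO and 23.3 and 26.8 CPM in control. PCGF6 was highest in WT, and neither pair of groups overlapped. It fell in both, by 0.75 ± 0.14 in MLL4 KO (adjusted p = 0.0116) and 0.48 ± 0.14 in BAP1 KO (adjusted p = 0.0347), and the difference was -0.27 ± 0.19 (adjusted p = 0.364). The PCGF6 call was lost in MLL4 KO without MLL4 KO replicate 2 (adjusted p = 0.0568) and in BAP1 KO without any single BAP1 KO or control library (adjusted p = 0.104 to 0.277).

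PCGF5 had 37.6 and 33.4 CPM in MLL4 KO and 43.3 and 60.7 CPM in WT, with 56.6 and 53.1 CPM in BAP1 KO and 61.6 and 62.9 CPM in control. All 4 knockout libraries lay below their own unedited group. It fell in MLL4 KO by 0.55 ± 0.16 (adjusted p = 0.0436), a call lost without any single library other than WT replicate 1 (adjusted p = 0.0643 to 0.227). In BAP1 KO it was -0.18 ± 0.16 (adjusted p = 0.454), and the difference of -0.37 ± 0.23 did not pass (adjusted p = 0.299), although it passed at -0.59 without WT replicate 1 (adjusted p = 0.0323). PCGF1 and PCGF3 passed in no comparison. PCGF1, at 17.5 to 26.6 CPM over the 8 libraries, was 0.26 ± 0.17 in MLL4 KO (adjusted p = 0.3) and -0.16 ± 0.17 in BAP1 KO (adjusted p = 0.536). PCGF3, at 82.1 to 106 CPM, was 0.19 ± 0.12 in MLL4 KO (adjusted p = 0.292) and 0.04 ± 0.12 in BAP1 KO (adjusted p = 0.854). PCGF3 had the narrowest range of all 29 members, with a highest level 1.29 times its lowest.

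CBX proteins tether canonical PRC1 to methylated H3K27. CBX7 (chromosome 22, 39130772 to 39152680) had 49.4 and 62 CPM in MLL4 KO and 26.5 and 23.1 CPM in WT, with 45.6 and 44.6 CPM in BAP1 KO and 23.8 and 21.9 CPM in control. All 4 knockout libraries lay above all 4 unedited libraries. CBX7 rose by 1.17 ± 0.15 in MLL4 KO (2.25-fold, adjusted p = 0.00503) and by 0.98 ± 0.15 in BAP1 KO (1.97-fold, adjusted p = 0.00213). The difference of effects did not pass, at 0.19 ± 0.21 (adjusted p = 0.575). Both calls were kept without any single library, and the MLL4 KO call was lost with only the 4 libraries of the comparison (adjusted p = 0.0596).

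CBX2 (chromosome 17, 79777311 to 79787983) had 63 and 49.3 CPM in MLL4 KO and 72 and 69.8 CPM in WT, with 39.8 and 29.3 CPM in BAP1 KO and 23.5 and 23.4 CPM in control. Neither pair of groups overlapped, with the highest levels in WT. It was -0.34 ± 0.17 in MLL4 KO (adjusted p = 0.18), rose by 0.56 ± 0.17 in BAP1 KO (adjusted p = 0.0464), and the effects differed by -0.89 ± 0.24 (adjusted p = 0.0358). CBX2 was the single PRC1 member whose effects differed past the threshold. The BAP1 KO call was lost without either control library or BAP1 KO replicate 1 (adjusted p = 0.211 to 0.338), and the difference also without WT replicate 2 or MLL4 KO replicate 2 (adjusted p = 0.054 to 0.146 over these 5 libraries). Upper-quartile scaling ended both, at adjusted p of 0.0562 for BAP1 KO and 0.0575 for the difference, and the other settings of the low-count filter ended the BAP1 KO call (adjusted p = 0.0505 with the stricter filter and 0.0539 with none).

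CBX6 had 250 and 253 CPM in MLL4 KO and 270 and 212 CPM in WT, with 219 and 197 CPM in BAP1 KO and 183 and 179 CPM in control. MLL4 KO lay between the WT libraries, and BAP1 KO lay above control. CBX6 was 0.06 ± 0.13 in MLL4 KO (adjusted p = 0.773) and 0.2 ± 0.14 in BAP1 KO (adjusted p = 0.321). CBX8, at 25.8 to 39.7 CPM over the 8 libraries, was 0.21 ± 0.16 in MLL4 KO (adjusted p = 0.378) and 0.2 ± 0.16 in BAP1 KO (adjusted p = 0.401).

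CBX6 held the largest share of the CBX2, CBX6, CBX7 and CBX8 sum on the per-length scale in every library, 53.3% to 63.2%. CBX7 held 15.5% and 19.8% in MLL4 KO and 8.56% and 8.81% in WT, and 17.2% and 18.3% in BAP1 KO and 11.6% and 11.4% in control. Within the 6 PCGF genes, PCGF2 held 31.9% and 32.4% in MLL4 KO and 22.6% and 21.3% in WT, and 29.5% and 28.8% in BAP1 KO and 18.4% and 18.3% in control. BMI1 held 16.1% and 15.1% in MLL4 KO and 22.1% and 27.1% in WT, and 11.4% and 11.5% in BAP1 KO and 22.1% and 24.3% in control. The shares describe messenger RNA and were not tested.

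**Figure D2:**
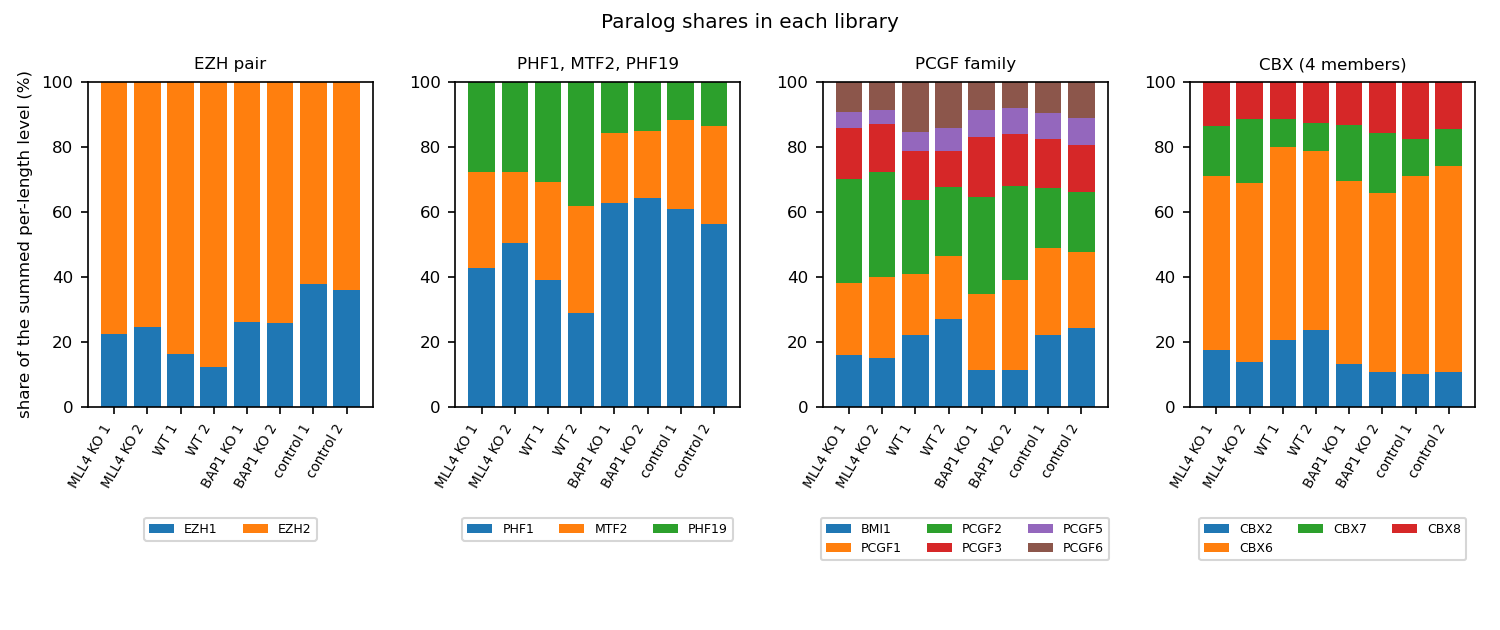
Share of each paralog in the summed per-length level (percent) of its family in each of the 8 libraries, for EZH1 and EZH2, for PHF1, MTF2 and PHF19, for the PCGF genes and for 4 CBX genes. PCGF2 and CBX7 take larger shares in the knockout libraries than in the unedited ones, and BMI1 a smaller share.

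The PHC proteins link canonical PRC1 complexes into larger assemblies, and RYBP, YAF2 and KDM2B mark variant PRC1, KDM2B by binding unmethylated CpG islands. No PHC gene, RYBP, YAF2 or KDM2B passed in either knockout. PHC2 had 102 and 208 CPM in MLL4 KO and 161 and 134 CPM in WT, with 273 and 271 CPM in BAP1 KO and 214 and 193 CPM in control. The MLL4 KO replicates of PHC2 differed by 2.04 times and enclosed both WT libraries, at a log2 fold change of 0.07 ± 0.28 (adjusted p = 0.878) that ranged from -0.51 to 0.5 without a library. BAP1 KO lay above control at 0.42 ± 0.28 (adjusted p = 0.333), which passed without either MLL4 KO library (adjusted p = 0.0442 and 0.0465) and with only the 4 BAP1 KO and control libraries (adjusted p = 0.0054).

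PHC1, at 66.2 to 96.5 CPM over the 8 libraries, was 0.29 ± 0.12 in MLL4 KO (adjusted p = 0.0997) and 0.25 ± 0.11 in BAP1 KO (adjusted p = 0.146). The BAP1 KO value passed with only the 4 libraries of that comparison (adjusted p = 0.0293). PHC3, at 62.7 to 94.5 CPM, was 0.02 ± 0.14 in MLL4 KO (adjusted p = 0.938) and 0.25 ± 0.14 in BAP1 KO (adjusted p = 0.237). KDM2B had 59.8 and 51.2 CPM in MLL4 KO and 70.2 and 77.7 CPM in WT, with 47.7 and 39.5 CPM in BAP1 KO and 40.7 and 40.2 CPM in control. KDM2B lay below WT in both MLL4 KO libraries, at -0.41 ± 0.14 (adjusted p = 0.0636, and 0.0404 without WT replicate 1), and overlapped control in BAP1 KO, at 0.11 ± 0.14 (adjusted p = 0.623). RYBP, at 35.6 to 51.3 CPM, was 0.22 ± 0.14 in MLL4 KO (adjusted p = 0.293) and 0.02 ± 0.14 in BAP1 KO (adjusted p = 0.929). YAF2, at 6.51 to 13.7 CPM, was -0.22 ± 0.18 in MLL4 KO (adjusted p = 0.406) and 0.3 ± 0.18 in BAP1 KO (adjusted p = 0.257), and its most counted transcript is listed as noncoding.

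**Figure D3:**
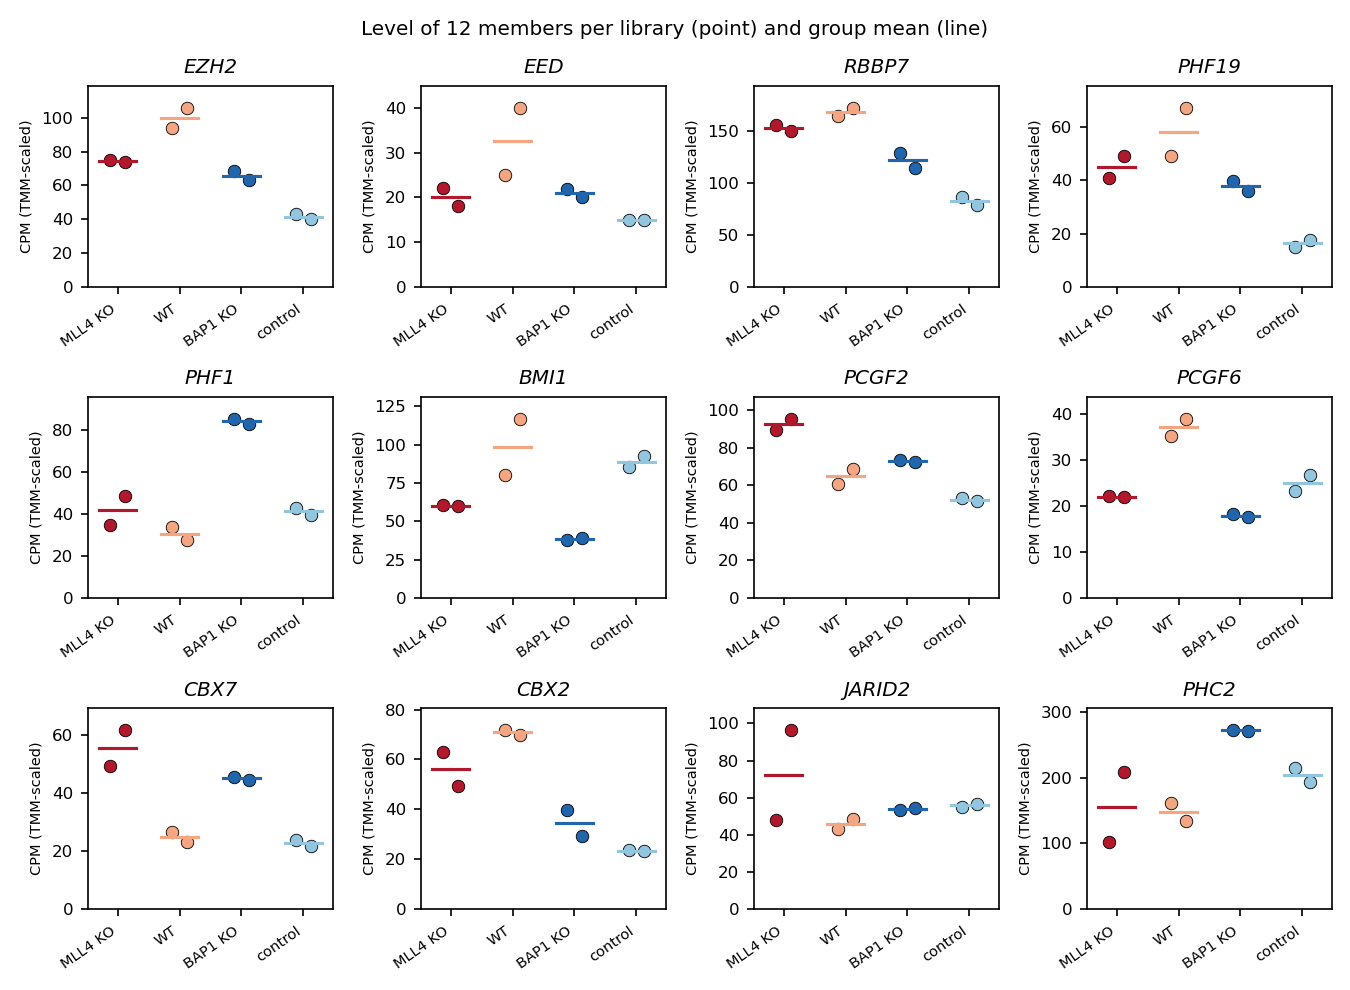
Level (TMM-scaled CPM, axis from 0) of 12 members in each library (points) with the group mean (line), for MLL4 KO, WT, BAP1 KO and control. The BMI1 points of each knockout lie below its unedited group and the PCGF2 and CBX7 points above it, and the MLL4 KO points of JARID2 and PHC2 lie far apart.

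In all, 18 PRC1 genes gave 5 calls in each knockout, or 27.8% against 19.1 percent of all tested genes in MLL4 KO and 22.4 percent in BAP1 KO, with median log2 fold changes of 0.07 in MLL4 KO and 0.15 in BAP1 KO. Of the members called in MLL4 KO, 5 of 7 were also called in BAP1 KO, and of those called in BAP1 KO, 5 of 10 in MLL4 KO. BMI1, PCGF2, PCGF6 and CBX7, all PRC1 genes, were called in the same direction in both, as were 3.98 percent of all tested genes. EZH2 was called in opposite directions, as were 2 percent of all tested genes. Another 17 members were called in neither. Of all 16828 tested genes, 3212 were called in MLL4 KO and 3777 in BAP1 KO. Of these, 670 were called in both in the same direction and 336 in both in opposite directions. The libraries did not overlap for 21 members in MLL4 KO, 8 above WT and 13 below, where 60.3 percent of all genes did not overlap, 30 percent above and 30.3 percent below. They did not overlap for 22 members in BAP1 KO, 17 above control and 5 below, where 72.2 percent of all genes did not, 37 percent above and 35.2 percent below.

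Control and WT, both unedited, also differed from each other. In control against WT, 11 of 29 members passed, 1 higher and 10 lower, or 37.9% against 39.6 percent of all tested genes (19.9 percent higher and 19.7 percent lower). The libraries did not overlap for 23 members, 10 above WT and 13 below, where 73.6 percent of all genes did not overlap, 37.9 percent above and 35.7 percent below. EZH1 was higher in control by 0.55 ± 0.14 (adjusted p = 0.015). The log2 fold change of control over WT was -1.82 ± 0.18 for PHF19 (adjusted p = 0.000141), -1.6 ± 0.17 for CBX2 (adjusted p = 0.000214) and -1.26 ± 0.12 for EZH2 (adjusted p = 0.000104). It was -1.13 ± 0.22 for EED (adjusted p = 0.00353), -1.03 ± 0.12 for RBBP7 (adjusted p = 0.000265) and -0.87 ± 0.14 for KDM2B (adjusted p = 0.00139). These 6 lower calls were kept without any single library.

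PCGF6 (-0.57 ± 0.14), MTF2 (-0.52 ± 0.14), SUZ12 (-0.52 ± 0.16) and CBX6 (-0.41 ± 0.14) were also lower in control than in WT. The calls of EZH1, MTF2, SUZ12 and CBX6 were lost without control replicate 1, at adjusted p of 0.128, 0.148, 0.153 and 0.174, and PCGF6 too, at 0.119. Without WT replicate 2, EZH1, MTF2 and SUZ12 were lost at 0.0659, 0.0912 and 0.169. Without control replicate 2, MTF2, SUZ12 and CBX6 were lost at 0.0861, 0.143 and 0.195, and CBX6 without WT replicate 1 at 0.144. The calls of SUZ12 and CBX6 were also lost without either BAP1 KO library (adjusted p = 0.0508 to 0.0532), and that of CBX6 with upper-quartile scaling (adjusted p = 0.0714) and with only the control and WT libraries (adjusted p = 0.0613). BMI1 and CBX7, at -0.15 ± 0.16 and -0.12 ± 0.15, overlapped between control and WT. BMI1 was -0.4 without WT replicate 1, which passed (adjusted p = 0.0213), and 0.15 without WT replicate 2.

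Genes of the cell cycle moved in the direction of EZH2 in both knockouts. Of 35 listed cell cycle genes, none rose and 23 fell in MLL4 KO, with a median log2 fold change of -0.68, or 65.7% where 9.97 percent of all tested genes fell. In BAP1 KO 30 rose and none fell, with a median of 1.06, or 85.7% where 12.1 percent of all tested genes rose. Their summed level was 5690 and 4500 CPM in MLL4 KO and 7090 and 8630 CPM in WT, with 3310 and 2920 CPM in BAP1 KO and 1530 and 1520 CPM in control, and none was at 0 in any library. MKI67, the Ki-67 marker of dividing cells, had 737 and 642 CPM in MLL4 KO and 959 and 1060 CPM in WT, with 452 and 316 CPM in BAP1 KO and 119 and 113 CPM in control. In these bulk libraries a smaller share of dividing cells and less RNA per cell cannot be told apart.

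In MLL4 KO the cell cycle genes with the smallest p were E2F8, MYBL2, UHRF1 and MCM10, with log2 fold changes of -0.99, -0.93, -1.15 and -1. In BAP1 KO they were FOXM1, CCNB2, MKI67 and TOP2A, at 1.56, 1.38, 1.72 and 1.61. All 35 were called lower in control than in WT, with a median of -2.41, where 19.7 percent of all tested genes were. For the difference of effects 34 of 35 passed, all negative, with a median of -1.8, where 8.32 percent of all tested genes passed as negative. The part of the cell cycle genes in the levels of EZH2, EED, RBBP7, PHF19, MTF2 and CBX2 was not tested. BMI1, CBX7, PCGF2 and PCGF6 moved in 1 direction in both knockouts, and the cell cycle list moved in opposite directions. PCGF6 was also lower in control than in WT, as was the list. The part of the cell cycle genes in the levels of BMI1, CBX7, PCGF2 and PCGF6 was not tested either. Of the 29 cell cycle genes with a promoter window, 10 (34.5%) held the E2F-type letters, where 2.75 percent of all genes with a window did.

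**Figure D4:**
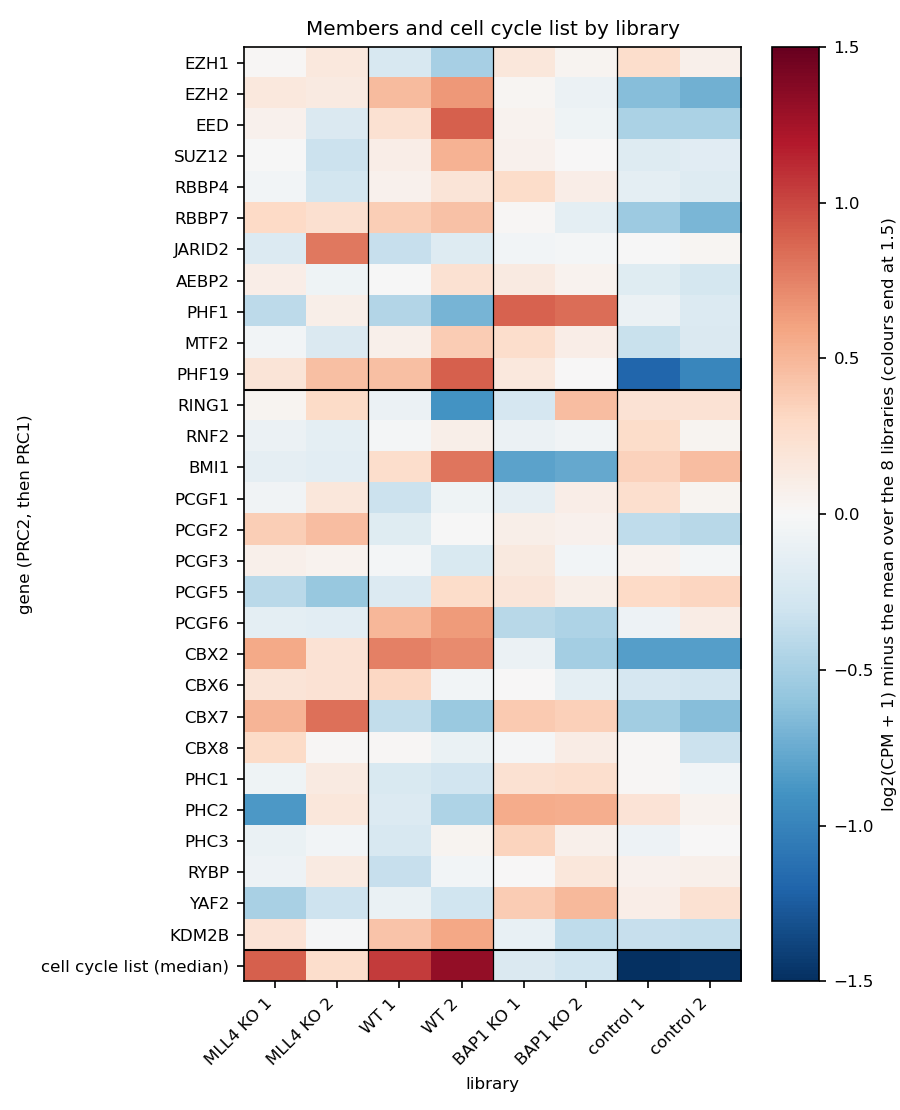
Level of the 29 members in each library as log2(CPM + 1) minus the mean of that gene over the 8 libraries, with PRC2 above the line and PRC1 below it, and the median of 35 cell cycle genes in the bottom row. The group means of EZH2, EED, RBBP7, PHF19 and CBX2 are highest in WT and lowest in control, as is the cell cycle median, while BMI1 is lowest in BAP1 KO.

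On the per-length scale, RBBP7 was the most abundant member in the MLL4 KO and WT libraries, at 65.7 to 75.8, and PHC2 in the BAP1 KO and control libraries. YAF2 was the least abundant in all 8, at 1.45 to 3.06. The members that varied most over the libraries were PHF19, whose highest level was 4.46 times its lowest, BMI1 at 3.09 times, PHF1 at 3.08 times and CBX2 at 3.07 times.

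Beyond the core subunits, 40 genes of partner proteins and related enzymes were listed and 36 were tested. In MLL4 KO 7 were higher and 7 lower, 38.9% of the 36 where 19.1 percent of all genes passed, with a median of -0.07. MBD6, a partner of the BAP1 complex, rose by 0.86 ± 0.16 and KDM6B, an H3K27 demethylase, by 0.66 ± 0.14 on the log2 scale. CBX3, which reads methylated H3K9, fell by 0.79 ± 0.14 and HCFC1, a cofactor bound by BAP1, fell by 0.74 ± 0.14 (adjusted p = 0.0113 to 0.0173 for these 4). In control against WT these 4 were called in the same directions, at 0.84 for MBD6, 1.27 for KDM6B, -0.61 for CBX3 and -1.72 for HCFC1. In BAP1 KO 4 were higher and 1 lower, 13.9% of the 36 where 22.4 percent of all genes passed, with a median of 0.1. HDAC1, a histone deacetylase, rose by 0.74 ± 0.11, DCAF7, a subunit of PRC1 with PCGF3 or PCGF5, by 0.7 ± 0.11, LCOR by 0.48 ± 0.12 and ASXL1, an activating partner of BAP1, by 0.42 ± 0.12 (adjusted p = 0.00149 to 0.0329 for these 4). CSNK2A1, a casein kinase subunit, fell by 0.45 (adjusted p = 0.0444). HDAC1 and DCAF7 were also called higher in MLL4 KO, at 0.38 and 0.53, and LCOR and ASXL1 were not called there.

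Reads of some members could not be assigned to a strand or to 1 gene. The library kit named in the labels does not mark strand, and RBBP4, RBBP7, PHF19, PCGF1, PCGF2, PCGF3, PHC1 and KDM2B, besides BMI1, overlap a counted neighbour. M6PR, beside PHC1, reached 133 CPM, and CISD3, beside PCGF2, 76.8 CPM. SYNC at RBBP4 reached 75.3 CPM, TXLNG at RBBP7 70.9 CPM and RNF34 at KDM2B 50.2 CPM. LOC100287808, also at PCGF2, had 5.55 and 5.12 CPM in MLL4 KO and 1.82 and 2.09 CPM in WT. It had 4.95 and 4.35 CPM in BAP1 KO and 2.27 and 1.59 CPM in control. The part of neighbour reads in the members' counts was not tested. EZH1, EED, JARID2 and PHC2 overlap counted neighbours at no more than 1.21 CPM. The changes of PHF19 differed between its transcript rows, from -0.64 to -0.29 in MLL4 KO and from 1.06 to 1.24 in BAP1 KO, those of CBX2 from -0.34 to -0.07 in MLL4 KO and from 0.56 to 1.07 in BAP1 KO, and those of PCGF5 from -1.06 to -0.54 in MLL4 KO, without a change of direction. The rows of YAF2 ranged from -0.18 to 0.38 in BAP1 KO and so changed sign.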

How the data were processed

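Polyadenylated RNA was selected from 1 µg of total RNA and sequenced, per the labels' protocols, in 8 of the 23 samples of the series; the 15 ChIP-seq samples were not analysed here. The deposited tables give, per the file headers, a whole-number read count for each RefSeq transcript, not normalized by the authors. The deposited RPKM values, which the authors scaled to transcript length and library size, were used only to recover lengths and the reads behind them. The submitters' processing notes name hg38, bcl2fastq, Bowtie2, STAR and SICER 1.1 without their roles, and no counting tool or strand setting is given in the sources used here.

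Transcripts were matched to symbols through RefSeq (GRCh38.p14), 611 of 88819 rows without a symbol (at most 0.256% of counts per library) were left out, and the row with the highest mean count stood for each of 28101 genes. edgeR 4.0.16 in R 4.3.3 tested the counts (quasi-likelihood, robust, TMM, filterByExpr) with a mean per group over all 8 libraries, two-sided, with Benjamini-Hochberg adjustment over 16828 genes. SE was computed by dividing the log2 fold change by the root of its F statistic. The procedure was run on simulated counts with far fewer changed genes than were called here, so that run does not check these calls. Alternatives included DESeq2 1.42.0, other scalings and filters, the longest transcript row, the 4 libraries of a comparison, a replicate block and leaving out each library. The members, lists and tests were chosen with earlier results of these data known. The text names every member and, per list and knockout, up to 4 called genes with the smallest p, plus CSNK2A1, the only related gene lower in BAP1 KO.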

Additional observations from a re-analysis of the deposited data

Results flagged for a closer look

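For 7 members the change in MLL4 KO against WT differed from the change in BAP1 KO against control by a test of the difference itself (edgeR, n = 2 per group), each with a negative sign. They were 24.1% of the 29, where the difference passed in 16.1 percent of all tested genes and was negative in 8.32 percent. The difference, MLL4 KO effect minus BAP1 KO effect on the log2 scale, was -1.08 for EZH2, -1.57 for PHF19, -0.71 for RBBP7, -0.84 for MTF2, -1.19 for EED, -0.89 for CBX2 and -0.64 for RBBP4. EZH2 was called in opposite directions in the 2 knockouts, EED was called in MLL4 KO, PHF19, RBBP7, MTF2 and CBX2 were called in BAP1 KO, and RBBP4 in neither. The cell cycle genes differed in the same direction, with 34 of 35 past the threshold, and their part in these differences was not tested. EZH2, PHF19, RBBP7, MTF2, EED and CBX2 were also called lower in control than in WT, and RBBP4 was not called there. The part of that gap between the unedited groups was not tested either. Over 17 alternatives the difference was kept in all for EZH2 and PHF19. It was lost in 4 for RBBP7, 4 for MTF2, 6 for EED, 6 for CBX2 and 8 for RBBP4.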

How the results depend on the processing

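Over 18 alternatives (17 for the difference of effects), the 29 members in each knockout, and 13 members each for the difference of effects and for control against WT whose values are reported, gave 1499 values. Of these 1331 had the direction and call of the reported fit, 117 lost a call, 35 gained one and 16 changed sign, none of the 16 past the threshold. Members called in MLL4 KO numbered 7 in the reported fit, 0 with only the 4 libraries of the comparison (where 60 of all genes were called, against 3212), 4 with a replicate block, 11 with a crossed replicate block and 1 to 13 when a library was left out (530 to 5290 of all genes). In BAP1 KO they numbered 10, 16 with only the 4 libraries (6658 of all genes, against 3777) and 3 to 12 when a library was left out (1076 to 5010 of all genes). For the difference of effects the range without a library was 2 to 10 (680 to 4419 of all genes, against 2703), and for control against WT 6 to 15 (3252 to 7258, against 6661). The changed signs in MLL4 KO, each with that member's range over the fits without a library, were AEBP2 at 0.03 without WT replicate 2 and 0.01 without MLL4 KO replicate 2 (-0.21 to 0.03), CBX6 at -0.1 without WT replicate 2 (-0.1 to 0.24), PHC2 at -0.05 without WT replicate 2 and -0.51 without MLL4 KO replicate 2 (-0.51 to 0.5) and PHC3 at -0.12 without WT replicate 1 (-0.12 to 0.18). In BAP1 KO they were EZH1 at 0.03 without control replicate 1 and 0 without BAP1 KO replicate 2 (-0.17 to 0.03), RING1 at 0.25 without BAP1 KO replicate 1 (-0.47 to 0.25), PCGF3 at -0.02 without control replicate 2 and -0.06 without BAP1 KO replicate 1 (-0.06 to 0.13), RYBP at -0.07 without BAP1 KO replicate 2 (-0.07 to 0.11), KDM2B at -0.03 without BAP1 KO replicate 1 (-0.03 to 0.24) and YAF2 at -0.21 on its longest transcript row. For the difference of effects it was PCGF2 at -0.05 without WT replicate 1 (-0.05 to 0.12), and for control against WT BMI1 at 0.15 without WT replicate 2 (-0.4 to 0.15). The cause was not tested. Same-numbered libraries did not deviate together (correlation of deviations -0.189 for MLL4 KO and WT, -0.00134 for BAP1 KO and control), and the reported fit did not pair them. These correlations cannot show whether same-numbered libraries were prepared together. The block ended the calls of EZH2, EED and PCGF5 in MLL4 KO (adjusted p = 0.059, 0.0756 and 0.0666), of MTF2 and PCGF6 in BAP1 KO (0.0669 and 0.0527) and of RBBP4 for the difference (0.0548). With the block 8 members were called in BAP1 KO (3312 of all genes), 6 for the difference of effects (2184 of all genes) and 11 in control against WT (6192 of all genes). In MLL4 KO the block called 2347 of all genes and the crossed block 3557. The crossed block and the legacy dispersion were chosen after seeing the data. With 2 libraries per group, the spread within a group rests on all 8 libraries.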
